A study of Homo sapiens with 6 samples.

Results

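Ribosome occupancy was examined for 10 transcription factors that set erythroid and other blood lineages: GATA1, GATA2, TAL1, KLF1, LMO2, LDB1, ZFPM1, GFI1B, MYB and RUNX1. They were taken by gene symbol from a table of 19330 transcripts, 1 per gene, and all 10 were found. The cells were K562, a line from a chronic myelogenous leukemia, transduced with a lentiviral CRISPR/Cas9 vector and harvested 10 days after infection. The 3 sgN6AMT1 libraries came from cells with sgRNA against N6AMT1, whose product methylates eRF1, the protein that releases finished chains at stop codons. The 3 sgCtrl libraries came from cells with guides against olfactory receptor genes, spelled OR11A1 and OR2M49 in the labels. The methods of the study write OR2M4 and also name EGFP as a control target, and which guide each library carried is not given. Both groups carried the vector and had been selected with puromycin. Each replicate was an independent transduction per the methods of the study, and the cells were a selected population rather than a clone. Ribosome profiling counts the mRNA fragments that ribosomes shield from a nuclease (footprints), so its values follow mRNA abundance as well as translation. In such bulk samples a change in the share of cells that make an mRNA and a change in the footprints per cell cannot be told apart.

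In red cell precursors, GATA1 binds DNA at GATA sequences together with a complex in which LDB1 and LMO2 bridge it to TAL1, a basic helix-loop-helix protein that pairs with E proteins. ZFPM1 (FOG1) is a GATA1 cofactor that recruits the NuRD corepressor, GFI1B is a repressor that recruits LSD1-CoREST, and KLF1 activates globin and other red cell genes through CACCC sequences. GATA2, MYB and RUNX1 act earlier, in stem and progenitor cells, and GATA1 takes over sites from GATA2 as red cells mature.

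Libraries held between 1821356 and 2969736 counts, and pairs of libraries had a chi-square of 1.25 to 1.68 per degree of freedom within a group and of 4.89 to 7.04 across groups. N6AMT1 itself drew 25, 24 and 34 footprints in the sgCtrl libraries against 10, 9 and 8 in the sgN6AMT1 libraries, and the groups did not overlap (log2 fold change -1.51, edgeR adjusted p 6.69e-05). The K562 markers HBG1, HBG2, HBE1, HBZ, TFRC and KIT were present in every library. Of the markers of other cell types, MS4A1, CD14 and ELANE were at 0 in every library, which allows up to 3 counts, and MPO, CD3E and CDH1 did not exceed 4 counts. CD3D, LYZ and EPCAM were present in all 6 libraries. CPM are counts relative to the TMM-scaled library total, except that sums over markers use the library total without TMM scaling. The summed level of the 4 myeloid markers, which was nearly all LYZ, went from between 49.7 and 59.3 CPM to between 101 and 110.6. The part of this difference in the results below was not tested.

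The listed transcripts of all 10 factors were placed on GRCh38 (GENCODE release 44). GATA1 (ENST00000376670.7) lies on the plus strand of chromosome X at 48786590 to 48794311 with 6 exons, and LMO2 (ENST00000257818.2) has 6 exons on chromosome 11, minus strand, from 33858576 to 33892076. TAL1 (ENST00000294339.3) has 4 exons on chromosome 1, minus strand, from 47216292 to 47229771. On the plus strand were also MYB (6, 135181308 to 135219172, 16 exons), GFI1B (9, 132978694 to 132991687, 7 exons) and ZFPM1 (16, 88453280 to 88537031, 10 exons). On the minus strand were also GATA2 (3, 128479427 to 128488530, 7 exons), LDB1 (10, 102107560 to 102120285, 11 exons), KLF1 (19, 12884422 to 12887201, 3 exons) and RUNX1 (21, 34787801 to 35049298, 9 exons), each given by chromosome, start and end. Since eRF1 acts where a ribosome meets a stop codon, the last coding bases of each factor are shown with the stop codon in capitals.
GATA1: gtggtggctccgctcagctcaTGA
TAL1: gccgatggagccggccctcggTGA
KLF1: ttgcacatgaagcgccaccttTGA
ZFPM1: cacgccgccgagcacgtgaagTGA
GFI1B: gagagccagcacaatctcaagTGA
MYB: tcagcccggacgctggtcatgTGA
RUNX1: gaggccgtgtggaggccctacTGA
GATA2: agcatggtgaccgccatgggcTAG
LMO2: actaagatcaatgggatgataTAG
LDB1: cccacgtcacaggcctcccagTAA
TGA ended 7 of the 10 reading frames, and 49.2% of the 17495 listed transcripts with an annotated stop codon. TAG ended GATA2 and LMO2, and TAA ended LDB1 alone. In an average over transcripts, the study saw no difference in ribosome occupancy at stop codons upon N6AMT1 depletion. Whether the bases shown bear on the changes below was not tested.

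A footprint is short, so related genes can share reads. Of the 28-base stretches of each coding sequence, the share also found in a transcript of another gene was 0 for GATA1, TAL1, LDB1, ZFPM1 and MYB. It was highest for GFI1B, at 1.35% (shared with GFI1 and ZNF70), and came to 1.13% for RUNX1 (RUNX2 and RUNX3), 0.918% for GATA2 (GATA5 and GATA6), 0.457% for LMO2 (JADE1) and 0.188% for KLF1 (KLF2). The longest stretch that the coding sequences of GATA1 and GATA2 have in common is 21 bases, from codon 232 of GATA1 and codon 323 of GATA2, and is shown because it bounds how far their footprints could be confused.
GATA1 and GATA2: cacaagatgaatgggcagaac
Counts of GATA1 cannot tell its protein forms apart. The shorter form, GATA1s, starts at codon 84, shown here in capitals with the coding bases on either side, and lacks the 83 codons (20.1% of 413) before it.
GATA1 codon 84: ttgctcaactgtATGgaggggatccca

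Per length of coding sequence, GATA1 was the most occupied of the 10 factors in sgCtrl, at 249.6 ± 9.49 CPM per kilobase (SD, n = 3), which exceeded 91.2% of the genes tested with a known coding length. GFI1B at 114 ± 10.5 and KLF1 at 113 ± 6.08 CPM per kilobase came next and did not differ beyond their spread. MYB (78.4 ± 5.11) and LDB1 (78.3 ± 6.41) overlapped as well, followed by GATA2 (67.6 ± 3.37), LMO2 (60.04 ± 2.62) and TAL1 (41.3 ± 2.70 CPM per kilobase). RUNX1 (11.6 ± 1.21) and ZFPM1 (5.75 ± 0.064 CPM per kilobase) were far lower and passed 30.6% and 14.0% of genes. In sgN6AMT1, GATA1 was again the most occupied (204 ± 12.8 CPM per kilobase), while TAL1 (57.5 ± 3.88) now stood above LMO2 (22.3 ± 5.72), with no overlap between the 2 genes.

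**Figure D1:**
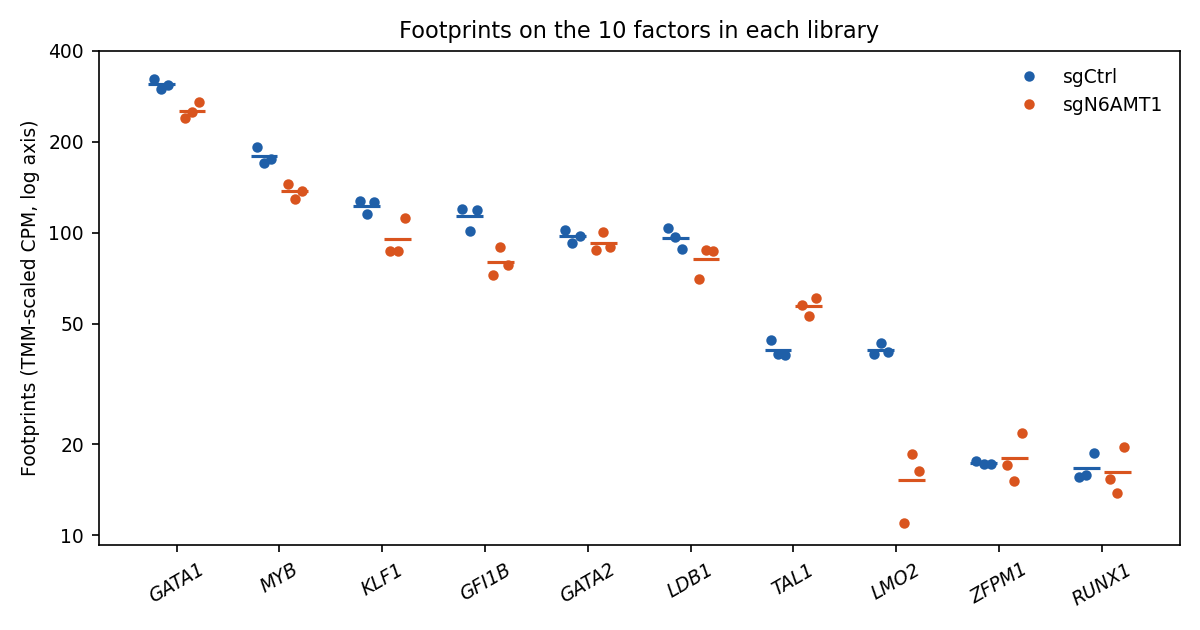
Footprints on each of the 10 factors (CPM scaled by TMM, log axis), with a point per library and a line at the mean of the 3 sgCtrl (blue) or 3 sgN6AMT1 (orange) libraries; coding lengths differ, so groups should be compared within a gene. All 3 sgN6AMT1 points lie below all sgCtrl points for GATA1, MYB, KLF1, GFI1B, LDB1 and LMO2 and above them for TAL1.

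To ask whether the blood lineage program changed upon N6AMT1 depletion, the factors were read from a comparison of all 9202 genes with enough counts. All 10 passed the filter on low counts. With the quasi-likelihood test of edgeR and p-values adjusted over all genes after Benjamini-Hochberg, 5 factors fell (GATA1, KLF1, LMO2, GFI1B and MYB), 1 rose (TAL1), and GATA2, LDB1, ZFPM1 and RUNX1 did not pass an adjusted p of 0.05. Across all genes tested, 26.9% passed, 12.9% higher and 13.9% lower. The groups did not overlap for 7 of the 10 factors, against 37.5% of all genes. DESeq2, the tool of the study, also called 6 factors, where it called 12.4% of the genes to which it gave an adjusted p. The median log2 fold change of the 10 factors was -0.27 and that of all genes 0.0063.

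LMO2, the bridging protein of the complex, changed most. It drew 79, 125 and 82 footprints in sgCtrl against 25, 43 and 30 in sgN6AMT1, or 39.7, 43.1 and 40.4 against 11.0, 18.6 and 16.3 CPM. Every sgN6AMT1 library was thus below every sgCtrl library by a wide margin. LMO2 fell from 41.1 ± 1.79 to 15.3 ± 3.91 CPM (n = 3 per group, SD), which is -1.44 on the log2 scale (standard error 0.17; adjusted p 1.39e-11 by edgeR), or to 0.370 times the sgCtrl level. Only 22 of the 9202 genes tested had a more negative log2 fold change. The decrease passed the threshold in all 15 alternative settings, with log2 fold changes from -1.62 to -1.23.

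TAL1, the DNA-binding partner that LMO2 holds in the complex, went the other way. It drew 88, 115 and 80 footprints in sgCtrl against 132, 123 and 112 in sgN6AMT1, or 44.2, 39.6 and 39.4 against 57.9, 53.1 and 60.8 CPM. It rose from 41.1 ± 2.69 to 57.3 ± 3.86 CPM (n = 3 per group, SD), which is 0.48 on the log2 scale (standard error 0.12; adjusted p 0.00126 by edgeR). TAL1 stood at 1.11, 0.920 and 0.976 counts per count of LMO2 in sgCtrl and at 5.28, 2.86 and 3.73 in sgN6AMT1. This ratio, chosen after its parts had been seen, uses no scaling between libraries. Under DESeq2 the adjusted p of TAL1 was 0.0482, the highest of its 15 alternatives.

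LDB1, the scaffold to which LMO2 binds, had 104, 96.9 and 88.2 CPM in sgCtrl and 70.6, 87.7 and 87.4 CPM in sgN6AMT1. The groups did not overlap, but their nearest values were close, and the log2 fold change of -0.24 (SE 0.10, 95% interval -0.44 to -0.0393) did not pass (edgeR adjusted p 0.0668). It passed without sgCtrl replicate 3 (adjusted p 0.0389), without sgN6AMT1 replicate 3 (adjusted p 0.0437) and with trends on coding length and GC content removed (log2 fold change -0.35, adjusted p 0.00113). LMO2 stood at 0.382, 0.445 and 0.458 counts per count of LDB1 in sgCtrl and at 0.155, 0.212 and 0.186 in sgN6AMT1. This ratio was also chosen after its parts had been seen, and it restates the fall of LMO2.

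GATA1, the factor most footprints fell on, had 323, 299.9 and 307 CPM in sgCtrl and 239, 251 and 270.3 CPM in sgN6AMT1. The groups were separate and the step between them small. GATA1 fell from 310.0 ± 11.8 to 253 ± 15.9 CPM (n = 3 per group, SD), which is -0.29 on the log2 scale (standard error 0.063; adjusted p 0.000135 by edgeR), or to 0.817 times the sgCtrl level. GATA2 had 102, 92.7 and 97.6 CPM in sgCtrl and 87.7, 100.7 and 89.6 CPM in sgN6AMT1, so its groups overlapped. Its log2 fold change of -0.07 (95% interval -0.26 to 0.12, edgeR adjusted p 0.656) left room for a fall to 0.837 times or a rise to 1.09 times the sgCtrl level.

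The balance of the 2 GATA factors was compared within each library. GATA1 had 3.15, 3.23 and 3.15 counts per count of GATA2 in sgCtrl and 2.73, 2.49 and 3.02 in sgN6AMT1. Each sgN6AMT1 ratio lay below each sgCtrl ratio. The mean went from 3.18 ± 0.049 to 2.75 ± 0.26 (n = 3 per group, SD), a log2 difference of -0.22 (2-sided exact permutation p = 0.1, the smallest that 3 libraries against 3 allow). Without sgN6AMT1 replicate 2 the log2 difference was -0.15, and without sgN6AMT1 replicate 3 it was -0.29.

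ZFPM1, the GATA1 cofactor, drew 35, 50 and 35 footprints in sgCtrl against 39, 35 and 40 in sgN6AMT1. Its groups overlapped, and its log2 fold change of 0.03 did not pass (95% interval -0.36 to 0.43, edgeR adjusted p 0.929). That interval runs from 0.778 to 1.35 times the sgCtrl level, so a difference of that size was not detectable at this depth.

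**Figure D2:**
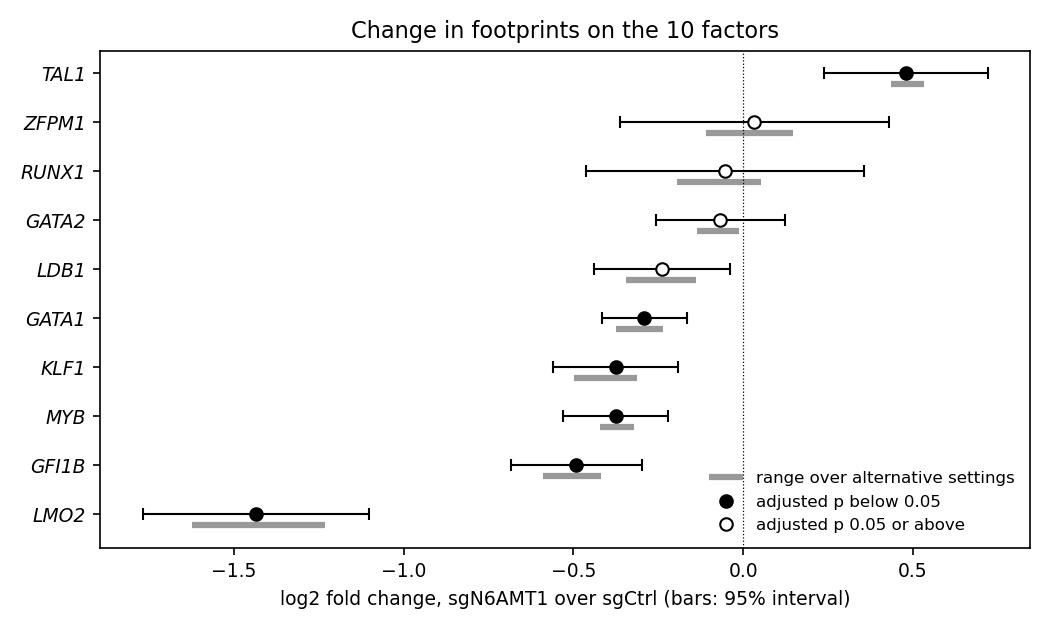
Log2 fold change of each factor, sgN6AMT1 over sgCtrl, from edgeR with its 95% interval (black; filled where the adjusted p was below 0.05), and the range of the same value over the alternative settings (grey). LMO2 at -1.44 lies apart from GFI1B, MYB, KLF1, GATA1 and LDB1, which run from -0.49 to -0.24, and TAL1 at 0.48 has the single interval above 0.

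GFI1B, the repressor of the set, had 120.1, 102 and 119 CPM in sgCtrl and 72.3, 89.9 and 78.2 CPM in sgN6AMT1, with every sgN6AMT1 library lower. It fell from 114 ± 10.4 to 80.1 ± 8.93 CPM (n = 3 per group, SD), which is -0.49 on the log2 scale (standard error 0.098; adjusted p 3.23e-05 by edgeR). KLF1, the activator of adult globin genes, had 128, 115 and 126 CPM in sgCtrl and 87.2, 86.8 and 112 CPM in sgN6AMT1. Replicate 3 of sgN6AMT1 came close to the lowest sgCtrl library. KLF1 fell from 123 ± 6.62 to 95.3 ± 14.3 CPM (n = 3 per group, SD), which is -0.37 on the log2 scale (standard error 0.093; adjusted p 0.00094 by edgeR). MYB, a factor of cycling progenitors, had 192, 170.0 and 176 CPM in sgCtrl and 146, 129.6 and 138 CPM in sgN6AMT1, with a clear gap between the groups. Its log2 fold change was -0.38 (standard error 0.077; adjusted p 5.88e-05 by edgeR). These 3 factors and GATA1 passed in all 15 alternatives.

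RUNX1, a factor of blood stem cells and platelet precursors, shares chromosome 21 with N6AMT1 and lies 5.90 Mb from it. It drew 31, 46 and 38 footprints in sgCtrl against 35, 32 and 36 in sgN6AMT1, with overlapping groups. Its log2 fold change was -0.05 (95% interval -0.46 to 0.36, edgeR adjusted p 0.883). The other 84 tested genes of chromosome 21, without N6AMT1, had a median log2 fold change of -0.26, with 36 lower and 2 higher past the threshold. Across all genes tested, 13.9% were lower and 12.9% higher. RUNX1 was 0.20 above the chromosome 21 median on the log2 scale. That median lies inside the 95% interval of RUNX1, so the 2 could not be told apart. With total counts only its log2 fold change was 0.0011.

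The partners through which the factors act were described from lists, beside the 26.9% of all genes that passed. Of 13 partners of the LDB1 complex, 10 had enough counts, and 3 rose and 1 fell (median log2 fold change 0.29). LYL1, the closest relative of TAL1, rose as TAL1 did, from 102 ± 4.29 to 136 ± 15.6 CPM (n = 3 per group, SD; log2 fold change 0.41, edgeR adjusted p 0.000132). SSBP3, which stabilises LDB1, rose by 0.39 (edgeR adjusted p 0.000328) and the E protein TCF4 by 0.50 on the log2 scale (edgeR adjusted p 0.0221). The call of TCF4 was lost by DESeq2, without sgCtrl replicate 1 and without sgN6AMT1 replicate 1, with adjusted p up to 0.203. Other E proteins of the list, TCF3 (log2 fold change -0.10) and TCF12 (0.24), did not pass (edgeR adjusted p 0.632 and 0.118). Nor did SSBP2 (-0.04) and SSBP4 (0.34), relatives of SSBP3 (edgeR adjusted p 0.811 and 0.176). CBFA2T3 (ETO2), the corepressor of the complex, fell from 94.9 ± 4.53 to 58.8 ± 4.55 CPM (n = 3 per group, SD; log2 fold change -0.68, edgeR adjusted p 1.81e-07). LMO4, the other LMO protein with enough counts, had a log2 fold change of 0.44 and did not pass (edgeR adjusted p 0.187).

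**Figure D3:**
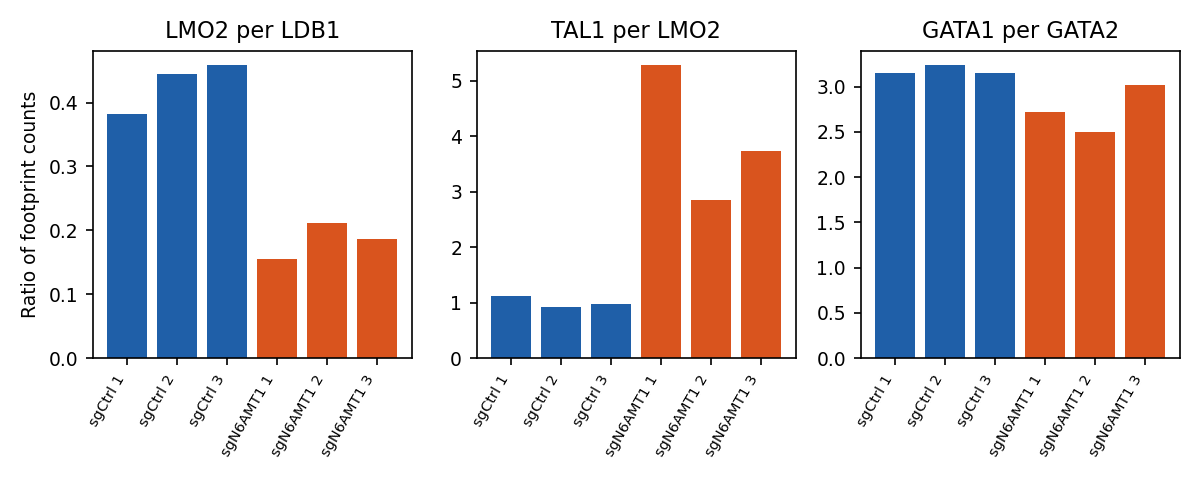
Ratios of footprint counts within each library for LMO2 per LDB1, TAL1 per LMO2 and GATA1 per GATA2 (bars from 0; sgCtrl blue, sgN6AMT1 orange). LMO2 per LDB1 is 0.382 or more in sgCtrl and 0.212 or less in sgN6AMT1, TAL1 per LMO2 is 1.11 or less and 2.86 or more, and the GATA1 to GATA2 ratios differ by less. LMO2 per LDB1 and TAL1 per LMO2 were chosen after their parts had been seen.

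Corepressor lists had shares of calls near that of all genes, 22.2% for LSD1-CoREST and 21.4% for NuRD. In the LSD1-CoREST list that GFI1B draws on, 2 of 9 tested genes fell, HDAC2 (log2 fold change -0.28, edgeR adjusted p 0.000132) and the demethylase KDM1A (-0.23, edgeR adjusted p 0.00294), and 0 rose. KDM1A did not pass without sgN6AMT1 replicate 1 (adjusted p 0.0615). In the NuRD list that ZFPM1 draws on, all 14 genes were tested, with HDAC2, which both lists hold, and RBBP4 lower (RBBP4 -0.15, edgeR adjusted p 0.0140) and GATAD2B higher (0.34, edgeR adjusted p 0.0164). The calls of RBBP4 and GATAD2B were each lost in 3 of 15 alternatives. The helicase CHD4 had a log2 fold change of -0.12 (edgeR adjusted p 0.0778). Of 6 tested partners of RUNX1 and MYB, CBFB, the subunit that pairs with RUNX1, rose from 40.0 ± 4.98 to 56.8 ± 3.16 CPM (n = 3 per group, SD; log2 fold change 0.53, edgeR adjusted p 0.000443). The coactivators EP300 and CREBBP had log2 fold changes of 0.07 and -0.10 and did not pass.

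Other blood lineage factors changed in both directions, with 4 of 24 tested genes higher and 4 lower. The share called was 33.3%, against 26.9% of all genes tested. SPI1 (PU.1), the myeloid factor that opposes GATA1, drew 21, 30 and 19 footprints in sgCtrl against 62, 69 and 47 in sgN6AMT1. The groups lay far apart, at 10.1 ± 0.63 and 27.5 ± 2.17 CPM (n = 3 per group, SD), and the log2 fold change was 1.44 (standard error 0.20; adjusted p 6.13e-09 by edgeR). STAT5A, which carries signals of the erythropoietin receptor and of BCR-ABL, fell from 394 ± 12.8 to 197 ± 16.2 CPM (n = 3 per group, SD; log2 fold change -1.01, edgeR adjusted p 2.68e-25), while STAT5B at -0.12 did not pass (edgeR adjusted p 0.280). MEF2C, a factor of megakaryocytes and lymphocytes, fell by 0.85 on the log2 scale (edgeR adjusted p 6.08e-09). IKZF1 (-0.54) and BACH1 (-0.42) fell too, and FOXO3 (0.52), EGR1 (0.51) and HHEX (0.28) rose. EGR1 and BACH1 were outside the rule for named genes and complete the count. BACH1 is a gene of chromosome 21. Of this list, DESeq2 called only SPI1, STAT5A and MEF2C. NFE2, an erythroid and megakaryocytic factor, had a log2 fold change of -0.11 (edgeR adjusted p 0.279). FLI1 and CEBPA, factors of megakaryocytes and of granulocytes, had at most 1 count in a library and were not tested.

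**Figure D4:**
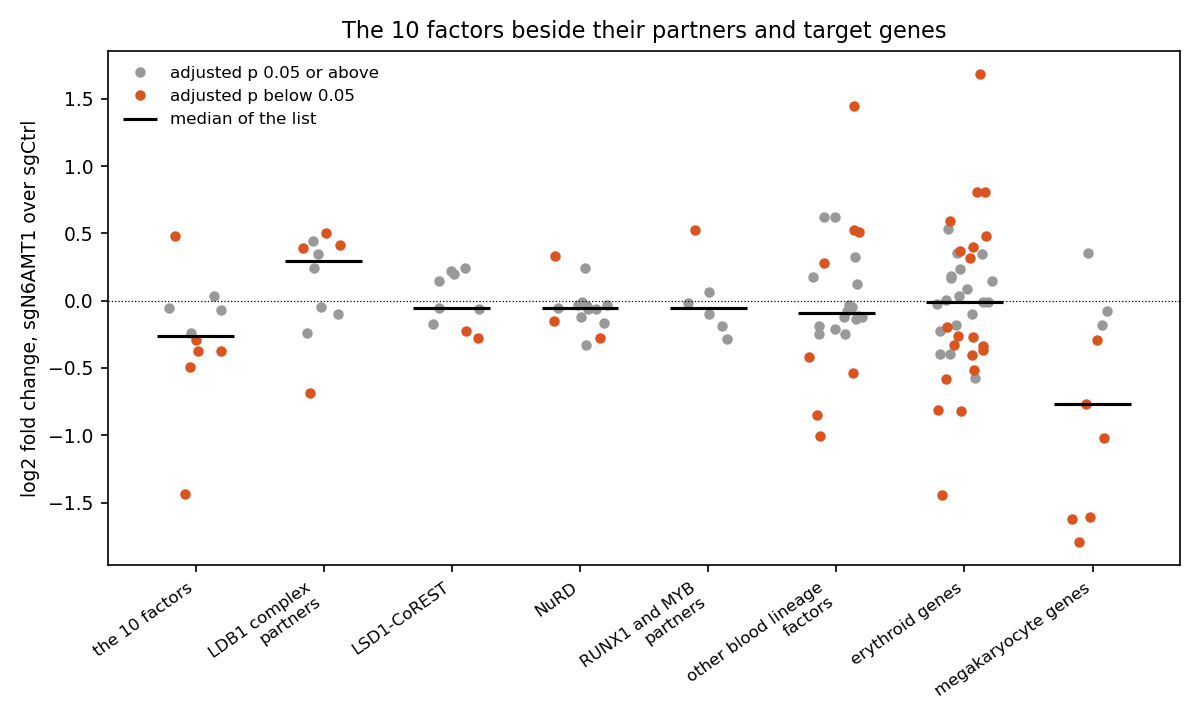
Log2 fold change, sgN6AMT1 over sgCtrl, of each tested gene in the 10 factors and 7 lists of related genes. Points are orange where the edgeR adjusted p was below 0.05, and a line marks the median of each list. The LDB1 complex partners have the highest median (0.29) and the megakaryocyte genes the lowest (-0.77).

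The 2 further lists held erythroid genes that GATA1 and KLF1 control and, apart from these, megakaryocyte genes. Of 39 tested erythroid genes, 12 fell and 8 rose, and the median log2 fold change was -0.0106. These calls made up 51.3% of the list, against 26.9% of all genes tested. Among the decreases were those of TMOD1 (tropomodulin, -0.82) and HBB (adult beta globin, -0.81). The largest increases were those of ALAS2 (1.68), DMTN (dematin, 0.81) and KEL (0.81). ALAS2, the first enzyme of erythroid heme synthesis, went from 48.6 ± 4.61 to 157 ± 10.2 CPM (n = 3 per group, SD), with an edgeR adjusted p of 1.59e-27. The call of DMTN was lost by DESeq2, without sgCtrl replicate 1, without sgCtrl replicate 3 and without sgN6AMT1 replicate 2 (adjusted p up to 0.182), and its log2 fold change ran from 0.64 to 1.27 over the alternatives. HBB shares sequence with the other beta-like globins, so its value is uncertain.

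Of 22 megakaryocyte genes only 9 had enough counts, of which 6 fell and 0 rose, with a median of -0.77. The 6 calls were 66.7% of those tested, against 26.9% of all genes. ITGA2B, which encodes the platelet integrin alpha chain and is a GATA1 target, drew 25, 36 and 22 footprints in sgCtrl against 5, 11 and 6 in sgN6AMT1 (log2 fold change -1.79, edgeR adjusted p 4.27e-06). GP6, the collagen receptor, and F2RL3, a thrombin receptor, fell by 1.62 and 1.61 on the log2 scale (edgeR adjusted p 1.12e-07 and 1.66e-08). ITGA2B passed the filter on low counts only through its sgCtrl libraries, the group where it was higher. Its fall is thus not independent of the filter and adds no support to the 6 calls or the median. ITGA2B, GP6 and F2RL3 rest on few counts, and with a mean of at least 50 counts required, 1 call of the list was left. GP1BB, a chain of the von Willebrand factor receptor, had more, with 269, 393 and 309 footprints in sgCtrl against 136, 150 and 158 in sgN6AMT1 (log2 fold change -1.02, edgeR adjusted p 3.01e-15). It was named after its values were seen, and RefSeq also lists a transcript that reads through into it.

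Promoters were searched for fixed forms of the sequences that GATA factors and KLF1 bind, AGATAA or TGATAA and CCACACCC. Other forms were not searched, so a window without a match may hold one of them. RefSeq (GRCh38.p14) gave a window of 300 bases around the gene start it lists for 9 of the 10 genes, not LMO2. That start is the one of the transcript in the table for GATA1, KLF1, ZFPM1 and MYB, and lies elsewhere for GATA2, TAL1, LDB1, GFI1B and RUNX1. On either strand, AGATAA or TGATAA was found in 2 of these 9, TAL1 and KLF1, and in 7.65% of the promoters of 7176 tested genes. CCACACCC was found in 0 of the 9 and in 2.83% of those promoters. The 2 promoters with a match are shown because their genes moved in opposite directions, TAL1 higher and KLF1 lower. The match is in capitals, written on the strand of the gene. The window of TAL1 (chr1:47232286-47232585, minus strand) lies upstream of the start of its listed transcript, and that of KLF1 (chr19:12887152-12887451, minus strand) spans it.
TAL1: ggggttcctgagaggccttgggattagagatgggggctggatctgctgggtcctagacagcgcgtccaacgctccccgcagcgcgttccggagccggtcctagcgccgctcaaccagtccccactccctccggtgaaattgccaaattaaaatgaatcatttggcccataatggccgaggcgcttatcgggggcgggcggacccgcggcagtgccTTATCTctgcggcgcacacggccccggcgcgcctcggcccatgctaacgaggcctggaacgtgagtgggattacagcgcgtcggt
KLF1: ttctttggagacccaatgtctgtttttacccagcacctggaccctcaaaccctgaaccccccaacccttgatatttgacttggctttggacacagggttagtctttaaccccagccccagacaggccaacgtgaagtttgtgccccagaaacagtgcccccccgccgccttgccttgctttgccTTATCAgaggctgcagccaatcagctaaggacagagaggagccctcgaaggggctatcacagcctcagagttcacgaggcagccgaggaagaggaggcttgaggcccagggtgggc
These matches are letters in a window and were not tested as sites.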

How the data were processed

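The deposited table gives raw footprint counts, as whole numbers, for each transcript and library. The authors trimmed reads with cutadapt, mapped them with HISAT2 (GRCh38, release 84) to remove rRNA and tRNA, aligned the rest to canonical transcripts with bowtie2 and summed riboWaltz P-sites over coding sequences. They also counted overlaps with a gene annotation, and which counts the table holds is not stated. No molecular identifiers are described.

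Of the 19330 transcripts, 17687 were matched to GENCODE release 44 by identifier without version. Genes were tested across the whole table with edgeR 4.0.16 in R 4.3.3 (filterByExpr, TMM factors, robust quasi-likelihood F test, 2-sided, Benjamini-Hochberg over 9202 genes); 10128 genes with 0.465% of counts were left out. CPM are TMM-scaled. Per-kilobase values divide by coding length with the stop codon. Groups had no covariates; the common biological coefficient of variation was 4.36%.

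The 10 factors and 7 lists (150 genes, 149 matched by symbol) were chosen with earlier results of these data known. Named genes were the 10 factors, N6AMT1 and, per list, among calls whose groups did not overlap, the 3 that increased most and the 3 that decreased most; other genes named were chosen after their values were seen. Some genes that the rule or the marker lists take are not reported here. Alternatives were DESeq2 1.42.0, RLE, upper-quartile and no factors, other count filters, limma-voom (limma 3.58.1), the replicate number as a block, removal of trends on coding length and GC content (loess, span 0.5), and fits without each library.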

Additional observations from a re-analysis of the deposited data

How the results depend on the processing

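GATA1, TAL1, KLF1, LMO2, GFI1B and MYB passed the threshold with the same sign in each of 15 alternatives, and GATA2 stayed short of it in all of them. The number of genes called fell from 2473 to 1329 with DESeq2 and ran from 1859 to 2322 in fits without 1 library. Between 6 and 7 of the 10 factors were called throughout, the seventh being LDB1. Factors near 0 changed sign: RUNX1 to 0.0011 with total counts only, 0.0225 without sgCtrl replicate 3 and 0.0521 without sgN6AMT1 replicate 2, and ZFPM1 to -0.11 without sgN6AMT1 replicate 3. In fits without 1 library RUNX1 ran from -0.19 to 0.0521 and ZFPM1 from -0.11 to 0.15. With total counts only, 38.5% of calls over all genes were lower in place of 51.8%, and with trends removed 59.3%. Among other blood lineage factors 8 calls became 3 with DESeq2 and between 5 and 8 without 1 library. Of the megakaryocyte genes, 6 calls became 1 with a mean of at least 50 counts, since most are then not tested. In fits without 1 library, calls ran from 1 to 3 for LSD1-CoREST, from 1 to 4 for NuRD and from 1 to 2 for the partners of RUNX1 and MYB. The cause of these differences was not tested. Same-numbered samples did not deviate together (correlations -0.0612, 0.0198 and 0.0162), and with the replicate number as a block 2390 genes and 6 factors were called. ZFPM1 and RUNX1 rested on 31 to 50 counts a library, which limits what could be detected for them.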

Other observations

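A pair of marker genes outside the lists moved beside the factors, and were chosen after their values had been seen. KIT, the stem cell factor receptor of progenitors and a gene that GATA2 activates and GATA1 represses, drew 22, 25 and 18 footprints in sgCtrl against 37, 51 and 26 in sgN6AMT1 (log2 fold change 0.91, standard error 0.23; adjusted p 0.00143 by edgeR). LYZ, the lysozyme of myeloid cells, rose from 54.4 ± 5.47 to 103 ± 5.60 CPM (n = 3 per group, SD), or by 0.90 on the log2 scale (standard error 0.11; adjusted p 2.46e-11 by edgeR). EPCAM and CD3D did not pass, at 0.05 and -0.31 (edgeR adjusted p 0.639 and 0.114).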
